A study of Mus musculus with 6 samples.

Results

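The cells described here were Gzmk or Gzma positive CD8 T cells of the mouse kidney. They were taken from 2 single-cell RNA sequencing libraries of sorted CD8+ kidney T cells, one from normal mice and one from mice with ischemia-reperfusion (IR) injury, and were chosen on their own transcript counts. A barcode counted as a member when it had at least 500 detected genes, at most 20% mitochondrial UMIs (unique molecular identifiers, each standing for 1 captured transcript), at least 1 UMI over Cd3d, Cd3e and Cd3g, at least 1 UMI over Gzmk and Gzma, and no UMI of Pdcd1 (PD-1) or Ccr7 (a lymph node homing receptor of naive and central memory cells). Of the 16098 Cd3 positive barcodes in these libraries, 3588 were members, out of 54039 barcodes in the series. The control library gave 2750 members of 9685 Cd3 barcodes, and the IR library gave 838 of 6413. The remaining Cd3 barcodes of each library, 6935 and 5575, are called other Cd3 barcodes below.

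All mice were wild-type C57BL/6J males aged 7 to 8 weeks. The IR group had both renal pedicles clamped for 30 min before reperfusion, and the control group was untreated normal mice. T cells were sorted as CD45+ TCRβ+ cells into CD4+, CD8+ and double negative (DN) fractions, with 1 library for each fraction and condition, 6 in all. The number of mice behind each library and the time between reperfusion and harvest were not given in the sources used here. With 1 library per group there was no replicate and no test between conditions, and every interval below covers counting error only. Condition could not be told apart from depth, which was lower in IR, or from the processing run, since the control files carried Cell Ranger 5.0.1 and the IR files 6.0.1 in their headers, and whether the runs counted introns alike was not given.

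Granzymes are serine proteases that cytotoxic lymphocytes store in granules with perforin and release onto target cells. Granzyme A and granzyme K are tryptase-like members of the family encoded side by side, whereas granzyme B, which cuts after aspartate, lies in another cluster with the mouse granzymes related to it. Granzyme K transcripts are typical of memory CD8 T cells with low granzyme B, and granzyme A transcripts are typical of terminally differentiated CD8 effector cells and of natural killer (NK) cells.

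Gzmk (ENSMUSG00000042385) and Gzma (ENSMUSG00000023132) were both on the minus strand of mouse chromosome 13 (GRCm38), at chr13:113171608-113225908 and chr13:113093825-113100981 in the GENCODE annotation. The RefSeq first bases, at 113180965 and 113100981, were 79.98 kb apart, and the annotated Gzmk span reached further upstream than its RefSeq first base. The 250 bases ahead of each first base are shown because these neighbouring genes selected the cells yet marked different ones. Sequences are RefSeq, build GRCm38.p6, minus strand, written 5′ to 3′. Capitals mark matches to 3 short motifs searched on both strands, namely GGTGTGA (the core site of T-box factors such as T-bet and Eomes), TGTGGTT (Runx) and CAGGTG (an E-box also read by Zeb factors).
Gzmk, chr13:113180966-113181215: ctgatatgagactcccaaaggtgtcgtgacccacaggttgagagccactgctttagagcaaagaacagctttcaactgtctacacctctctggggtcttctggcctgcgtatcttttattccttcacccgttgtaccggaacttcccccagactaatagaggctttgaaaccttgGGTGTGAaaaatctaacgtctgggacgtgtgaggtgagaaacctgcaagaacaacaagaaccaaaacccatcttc
Gzma, chr13:113100982-113101231: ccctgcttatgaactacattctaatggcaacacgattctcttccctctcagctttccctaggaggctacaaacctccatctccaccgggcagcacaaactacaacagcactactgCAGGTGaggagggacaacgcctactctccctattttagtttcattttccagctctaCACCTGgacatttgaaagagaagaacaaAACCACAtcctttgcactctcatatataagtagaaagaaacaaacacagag
The Gzmk window held the T-box letters, starting 75 bases upstream, and neither of the other motifs. The Gzma window held the Runx letters on the opposite strand 51 bases upstream and the E-box letters 135 bases upstream and, on the opposite strand, 79 bases upstream. Among 32851 windows of this length in the table, 3.33% held the T-box letters, 4.4% the Runx letters and 17.2% the E-box letters. The motifs do not overlap one another, and a match describes letters only.

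The libraries differed in depth and in composition. The control library held 76054125 UMIs over 10885 barcodes and the IR library 15102441 over 7956. Members had a median of 6752 UMIs in control and 1717 in IR, close to the other Cd3 barcodes of their library (7062 and 1836). The median share of UMIs from ribosomal protein genes was lower in members than in other Cd3 barcodes, at 19.3% against 21.7% in control and 30.0% against 44.9% in IR, so these genes, mitochondrial genes and Malat1 were left out of all totals. Levels are given in CPM, the UMIs of a gene summed over the cells of a group and scaled to the group's remaining UMIs. Of the member barcodes, 33 in control and 7 in IR also occurred in another library of the series. No doublet caller was run.

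Members carried the transcripts of CD8 αβ T cells. Cd8a, the CD8 α chain, was at 914 CPM in control members and 514 CPM in IR members, Cd8b1 at 1353 and 1266 CPM, and Trac, the T-cell receptor α constant segment, at 873 and 1007 CPM. Cd4 gave 2 UMIs in all control members and 0 in IR members. Ccl5, the third marker given for these cells, was at 9799 CPM (95% interval 9751 to 9848) in control members and 38733 CPM (95% interval 38387 to 39082) in IR members, against 6259 and 9254 CPM in other Cd3 barcodes. Transcripts of other cells were also counted. Summed γδ T-cell markers reached 29.3 CPM in control members and 18.6 in IR members, those of invariant NKT and MAIT cells 3.0 and 1.62, and those of kidney tubule 3.88 and 3.24. Larger sums came from myeloid markers (140.0 CPM in control and 233 in IR members), B-cell markers (143 and 102) and endothelial markers (52.4 and 38.1), against 182 and 185, 188 and 148, and 121 and 83.5 CPM in other Cd3 barcodes. Leaving out barcodes with 2 or more UMIs of the myeloid, B and erythroid lists kept 1706 control and 777 IR members, and the same limit on 18 stricter markers, without genes that T cells of these libraries also hold, kept 2727 and 833. The 7 NK-cell markers summed to 114 CPM in control members against 83.5 in other Cd3 barcodes, and to 140.3 against 69.5 in IR. Eomes, which CD8 T cells also express, is on that list, and the other 6 markers, summed after the data had been seen, reached 40.1 against 25.4 CPM in control and 85.1 against 41.3 in IR. Ncr1, which defines NK cells, gave 14 UMIs in control members and 1 in IR members. The part of NK cells in the results below was not tested. For the comparison of Gzmk-only with Gzma-only cells, values without barcodes of NK-cell markers are also given.

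Members were of 3 kinds, and their balance differed between the libraries. In control, 2093 members had Gzmk UMIs only, 356 had Gzma UMIs only and 301 had both. In IR these numbers were 378, 306 and 154. Gzmk-only cells thus made up 76.1% of control members and 45.1% of IR members. Because the chance to see a UMI rises with depth, every cell was also thinned to 1000 UMIs and the rule applied again, which left 8382 control and 5626 IR barcodes that still held a Cd3 UMI. Members were then 14.7% (95% interval 14.0 to 15.5) of control and 11.2% (95% interval 10.4 to 12.1) of IR Cd3 barcodes, against 28.4% and 13.1% before thinning.

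The order of the libraries depended on the kind. Gzmk-only cells were 10.6% (95% interval 9.91 to 11.2) of control and 4.80% (95% interval 4.26 to 5.39) of IR Cd3 barcodes. Gzma-only cells were 3.58% (95% interval 3.19 to 4.00) and 5.15% (95% interval 4.59 to 5.76), and cells with both 0.597% (95% interval 0.443 to 0.786) and 1.26% (95% interval 0.987 to 1.59). None of these 3 pairs of intervals overlapped, with Gzmk-only cells the smaller share in IR and the other kinds the larger. Without thinning, Gzmk-only cells were 21.6% and 5.89%, Gzma-only cells 3.68% and 4.77%, and cells with both 3.11% (95% interval 2.77 to 3.47) and 2.40% (95% interval 2.04 to 2.81), so the order of the double positive cells turned. Requiring 2 granzyme UMIs instead of 1 turned the order of the whole group, to 3.88% of control and 5.6% of IR Cd3 barcodes. The share therefore had no direction that held for both thresholds.

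Gzmk was a low transcript spread over many cells, while Gzma was concentrated in few. Of 2394 control members with Gzmk, 1164 had 1 UMI and 18 had 10 or more, and the highest count was 29. Of 532 IR members with Gzmk, 394 had 1 UMI and none reached 10. For Gzma, 133 of 657 positive control members and 157 of 460 positive IR members had 10 UMIs or more. These cells held 89.5% and 80.6% of the members' Gzma UMIs, and the highest cell had 932 in control and 118 in IR. The median Gzma count of a positive cell was 2 in control and 4.5 in IR, although IR cells were the shallower.

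**Figure D1:**
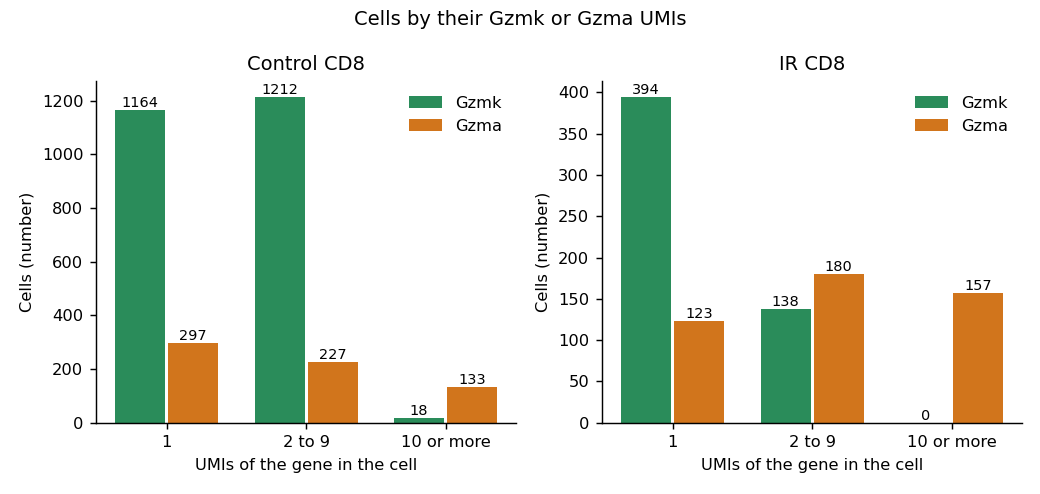
Number of members by the UMI count of Gzmk and of Gzma in the control and IR CD8 libraries, in classes of 1, 2 to 9 and 10 or more UMIs. Gzmk sat mostly at 1 to 9 UMIs, whereas 133 control and 157 IR members had at least 10 Gzma UMIs.

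A single UMI can come from free RNA in a droplet, so the share of cells with a UMI was also taken in Ccr7 positive barcodes and in barcodes without a Cd3 UMI. Whether these groups lack the granzymes was not shown, so their shares are given as values and not as a measured background. At 1000 UMIs, Gzmk was found in 12.2% of control Cd3 barcodes (median depth before thinning 7187 UMIs) and in 3.20% of the Ccr7 positive ones (9914 UMIs). In IR it was found in 5.87% of Cd3 barcodes and 0.711% of Ccr7 positive ones (1848 and 1957 UMIs). Gzma was found in 4.45% and 1.75% of these control groups and 6.49% and 1.17% of the IR groups. Without thinning, Gzmk was in 15.4% of control Ccr7 positive barcodes against 39.3% of Cd3 barcodes. Barcodes without a Cd3 UMI held Gzmk in 8.16% of control and 1.09% of IR cases, and Gzma in 8.16% and 0.546%, the control group numbering 98 barcodes.

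The rule left out 1546 granzyme-positive control barcodes (36%), of which 1274 had Pdcd1 and 355 had Ccr7, 83 of them both. In IR it left out 123 (12.8%), 58 with Pdcd1 and 70 with Ccr7. Members held 55.6% of the Gzmk UMIs of control Cd3 barcodes and 86.0% of those in IR, and 82.8% and 89.5% of the Gzma UMIs. Just inside the gene minimum, 29 control and 70 IR members had fewer than 550 genes, and just outside it 39 and 55 barcodes with at least 450 but under 500 genes met the other conditions.

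In the control library, members held more of a few terminal effector transcripts and less of many naive transcripts than the other Cd3 barcodes. A gene was called higher or lower when its CPM differed at least 2-fold and the higher group had at least 10 CPM and 20 UMIs. Of 8810 genes that met this minimum, 7 (0.0795%) were higher and 93 (1.06%) lower in members. The rule chose the cells from these same counts, so the values describe members and test nothing. Against barcodes with none of Gzmk, Gzma, Pdcd1 and Ccr7 the split was 57 and 44. The higher genes against all other Cd3 barcodes were Zeb2, Klrg1, Cx3cr1, S1pr5, Itgax, Kcnj8 and Gm4208, the last 3 named after their values were seen. All 10 genes of a list of naive and recirculating T cells were lower, with a median log2 ratio of -1.86 against -0.0031 over all genes.

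Zeb2, a repressor of memory fate in terminal effector cells, was at 198 CPM (95% interval 191 to 205) in control members and 71.7 CPM (95% interval 69.1 to 74.4) in other Cd3 barcodes, 2.76-fold higher. Klrg1, an inhibitory receptor of terminal effector cells, was at 29.7 CPM (95% interval 27.1 to 32.5) against 9.84 CPM (95% interval 8.88 to 10.9). Cx3cr1, the fractalkine receptor, was at 42.5 CPM (95% interval 39.4 to 45.8) against 14.0 CPM (95% interval 12.9 to 15.2), and S1pr5, an egress receptor of effector and NK cells, at 18.4 against 4.93 CPM. The intervals of members and other Cd3 barcodes stood apart for each of these genes. Gzmb missed the 2-fold limit at 256 against 138 CPM (1.86-fold), and none of the 13 granule genes tested passed it (list median 0.33).

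Genes of naive cells were among the lower ones of control members. Il7r, the IL-7 receptor chain that keeps naive and memory cells alive, was at 163 CPM in members and 435 in other Cd3 barcodes. Igfbp4 was at 2.81 against 45.5 CPM, Dapl1 at 36.5 against 188, and Auts2 at 3.0 against 59.4 CPM. Of 8 transcription factors of naive cells, Bach2, Id3, Klf2, Lef1 and Satb1 were lower, and Tcf7 stood at 178 against 343 CPM, a log2 ratio of -0.95. Since other Cd3 barcodes include every Ccr7 positive cell, these differences contain the rule itself. Against barcodes without any of the 4 rule genes, the log2 ratio of Lef1 was -0.71 instead of -1.31, that of Usp28 -0.91 instead of -1.77 and that of Il7r -1.03 instead of -1.41.

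In IR, more genes passed the limit between members and other Cd3 barcodes. Of 8416 genes, 277 (3.29%) were higher and 838 (9.96%) lower in members, around a median log2 ratio of -0.18 that TMM scaling moved by 0.11. The minimum was 16.2 CPM in members and 10 CPM in other Cd3 barcodes, so the split between higher and lower carries no direction. With ribosomal protein genes kept in the totals the split was 537 higher and 295 lower. Granule genes, inflammatory chemokines, NK-type receptors and cell cycle genes were among the higher ones, and all 10 naive and recirculating genes were again lower. All 7 genes higher in control members were also higher in IR members, 2.53% of the IR set, and 80 of the 93 lower ones were lower in both (86.0% of the control set and 9.55% of the IR set).

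Among granule genes, 7 of 13 tested were higher in IR members (list median 1.14 against -0.18 over all genes). Gzmb was at 1077 CPM (95% interval 1019.6 to 1136) against 123 CPM (95% interval 114 to 132) in other Cd3 barcodes, 8.76-fold higher. Prf1, which encodes perforin, was at 70.5 CPM (95% interval 56.5 to 87.0) against 27.9 CPM, Gzmm at 101 against 29.5, and Fasl, the death ligand, at 110.3 against 37.1 CPM. Serpinb6b and Serpinb9, granzyme inhibitors that cytotoxic cells carry, were also higher, with log2 ratios of 1.36 and 1.34. Nkg7 was at 3261 against 1477 CPM and was under 2-fold against barcodes without the 4 rule genes (log2 0.90).

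Of the 4 chemokine ligands tested in IR, Ccl3, Ccl4 and Ccl5 were higher in members. These ligands attract T cells and monocytes. Ccl5 was 4.19-fold higher, Ccl4 was at 1695 against 492 CPM and Ccl3 at 256 against 49.6 CPM. Xcl1, the ligand that draws cross-presenting dendritic cells, was at 198 against 236 CPM and was not called. Ifng was at 694 against 319.9 CPM, with a log2 ratio of 1.12 that was 0.50 against barcodes without the rule genes. In control members the same 5 genes had log2 ratios of 0.65 (Ccl5), 0.35 (Ccl4), 0.55 (Ccl3), 0.19 (Xcl1) and 0.60 (Ifng), none of them called.

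Most receptors for cell migration (6 of 8 tested) and 6 of 11 NK-type receptor genes were higher in IR members. The migration list includes S1pr5, which is a receptor for egress. Cx3cr1 was at 118 CPM (95% interval 99.2 to 138) in members and 12.2 CPM (95% interval 9.62 to 15.3) in other Cd3 barcodes, and S1pr5 at 53.5 CPM (95% interval 41.4 to 68.1) and 3.85 CPM (95% interval 2.47 to 5.73). Klrg1 was at 66.5 CPM (95% interval 52.9 to 82.5) and 3.69 CPM (95% interval 2.34 to 5.54), with no overlap of intervals for these genes. Among the migration receptors, Ccr2, Cx3cr1, Cxcr3, Cxcr6 and S1pr5 were higher and Ccr9 and Cxcr4 lower. Cxcr3 and Cxcr6 lost the call against barcodes without the rule genes, as Klrk1 did. Klrk1 (NKG2D), Klrc1 (NKG2A), Klre1, Klrb1c and the adaptor Tyrobp were the NK-type genes higher beside Klrg1, while Klra7 was lower. Klrd1, the CD94 partner of NKG2 chains, was at 1109 against 655 CPM and stayed under 2-fold.

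Among transcription factors of effector and memory cells, Zeb2, Tbx21 (T-bet) and Bhlhe40 were higher in IR members and Bcl6 lower. Zeb2 was at 203 CPM (95% interval 178 to 229) against 29.1 CPM (95% interval 25 to 33.6), and Tbx21 at 129.7 against 54.9 CPM, which had a log2 ratio of 0.62 against barcodes without the rule genes. Eomes, the T-box relative of T-bet, was at 55.1 against 28.3 CPM and was not called. Of 8 naive factors 7 were lower, among them Tcf7 at 93.2 against 501 CPM and Lef1 at 133 against 691 CPM. Of the cell cycle genes 8 of 10 were higher (list median 1.86), such as Stmn1 at 289 against 93.0 CPM and Mki67 at 50.3 against 10.1 CPM, while none of the 10 was called in control members.

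Lgals1, the galectin found in activated T cells, was at 2685 CPM in IR members and 561 in other Cd3 barcodes. Il7r was at 119 against 818 CPM and Igfbp4 at 6.49 against 169 CPM, so the naive genes were the more abundant in IR other Cd3 barcodes. Of coinhibitory genes, Havcr2 (TIM-3), Lag3 and Entpd1 (CD39) were higher and Btla lower. Costimulatory and T-cell receptor signalling lists had no called gene in either library. The lower IR calls Hbb-bs, Hbb-bt and Spp1 rested on few barcodes, with 97.6%, 97.8% and 98.0% of the UMIs in other Cd3 barcodes coming from 1 barcode each, and they turned to the other direction when barcodes with markers of other cells were left out.

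**Figure D2:**
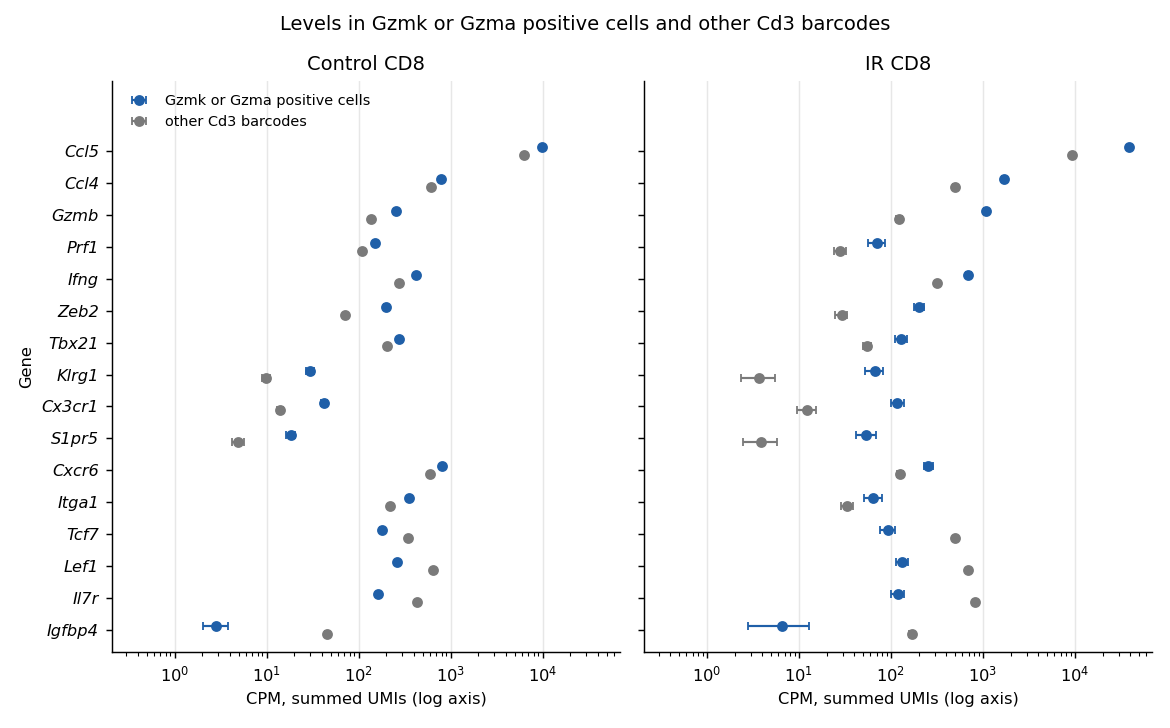
Levels of 16 genes in members (blue) and other Cd3 barcodes (grey) of each library, in CPM on a log axis with exact 95% Poisson intervals. In IR, Klrg1 was at 66.5 CPM in members and 3.69 in other Cd3 barcodes, while Il7r and Igfbp4 lay to the left of the grey points in members of both libraries.

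Other Cd3 barcodes were mixed, and members were set against each sort of them. Against Pdcd1 positive, Ccr7 negative barcodes of control, 15 of 8748 genes (0.171%) were higher in members and 23 (0.263%) lower. Against Ccr7 positive ones, 354 of 8967 genes (3.95%) were higher in members and 338 (3.77%) lower, and against those with none of the 4 rule genes, 57 of 8799 genes (0.648%) were higher in members and 44 (0.5%) lower. In IR, 516 of 8433 genes (6.12%) were higher in members and 1106 (13.1%) lower against Ccr7 positive barcodes, and 178 of 8488 genes (2.1%) were higher in members and 743 (8.75%) lower against those with none. For these IR splits the minimum was 16.2 CPM in members and 10 CPM in the barcodes they were set against. Pdcd1 positive cells held Gzmb at 289 CPM against 256 in members, Ccl5 at 10893 against 9799 and Tox, a factor of chronically stimulated T cells, at 1079.7 against 565 CPM. Zeb2 and Cx3cr1 separated the groups, at 86.3 against 198 and 15.8 against 42.5 CPM. In IR, only 131 barcodes were Pdcd1 positive and Ccr7 negative, and against them 464 of 6624 genes (7%) were higher in members and 41 (0.619%) lower. The minimum of 20 UMIs stood for 92.9 CPM in that small group and 16.2 CPM in members, so the split between higher and lower carries no direction.

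Members with 1 granzyme UMI already differed from barcodes without any. In control the 1222 members with 1 UMI over Gzmk and Gzma differed from barcodes without the 4 rule genes in 9 higher (0.103%) and 41 lower genes (0.467%) of 8779. In IR, 376 such members gave 58 higher (0.69%) and 837 lower (9.96%) of 8407. Il7r was at 190.4 CPM in these IR members, 81.0 in members with more UMIs and 677 in the barcodes without. Gzmb was at 140.1 CPM without granzyme UMIs, 427 with 1 and 1425 with more, and in control at 89.7, 127 and 331 CPM. Members with more UMIs had 48 of 8769 genes (0.547%) higher and 8 (0.0912%) lower than members with 1 in control, and 201 of 5264 genes (3.82%) higher and 126 (2.39%) lower in IR. In IR the minimum of 20 UMIs stood for 46.4 CPM in members with 1 UMI, 24.9 in members with more and no more than 10 in the barcodes without.

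Gzmk-only and Gzma-only cells differed in the same terminal effector genes in both libraries. Gzma-only cells held more Gzmb, Zeb2, Cx3cr1, S1pr5 and Klrg1, and Gzmk-only cells more Tox. In control, 100 of 8807 genes (1.14%) were higher in Gzmk-only cells and 214 (2.43%) lower. In IR, 178 of 4192 (4.25%) were higher and 96 (2.29%) lower. The libraries shared 6 genes higher in Gzmk-only cells, 6.00% of the control set and 3.37% of the IR set, and 21 genes lower in them, 9.81% and 21.9%. Control Gzma-only cells were shallower than Gzmk-only cells, with median UMIs of 3136 and 6819, and after thinning to 1000 UMIs the split turned to 525 higher and 28 lower in control. In IR it was 113 and 36, and with 2 UMIs per member 48 and 200, so the counts carry no direction, and the named genes below are given by their levels.

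The genes of terminal effector cells kept their direction in both libraries. Zeb2 was at 83.6 CPM (95% interval 78.6 to 88.9) in control Gzmk-only cells and 707 CPM (95% interval 668 to 748) in Gzma-only cells, and at 68.6 CPM (95% interval 46.3 to 98.0) and 339 CPM (95% interval 289 to 395) in IR. Cx3cr1 was at 10.9 and 204 CPM in control and at 38.9 and 196 CPM in IR. S1pr5 was at 4.52 and 95.7 CPM in control and 11.4 and 93.9 in IR. Intervals of the log2 ratio lay below 0 for each of these genes in each library. Klrg1 had log2 ratios of -3.27 in control and -2.21 in IR, and Lgals1 of -1.29 and -1.29.

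Gzmb was the granule gene called between the kinds in both libraries, at 154 CPM in control Gzmk-only cells and 479 in Gzma-only cells, and at 327 and 1442 CPM in IR. Perforin did not follow it. Prf1 was at 145 and 131 CPM in control and 73.2 and 79.6 CPM in IR, with log2 intervals of -0.052 to 0.36 and -0.84 to 0.59. Nkg7 had log2 ratios of 0.13 and -0.061, and Ccl5 of -0.079 and -0.43. The kinds thus differed by more than 2-fold in 1 of 13 granule genes tested in control and in Gzmb, Serpinb6b and Serpinb9 of 12 in IR.

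Gzmk-only cells were the richer in Tox, which was at 631 CPM (95% interval 617 to 646) against 305 CPM (95% interval 279 to 332) in Gzma-only cells of control and at 233 CPM (95% interval 190.3 to 283) against 77.6 CPM (95% interval 54.9 to 107) in IR. The control difference sat at the limit, and its log2 ratio of 1.05 reached as low as 0.89 in the alternatives tried. Cxcr6, a receptor of tissue-resident cells, was at 879 against 469 CPM in control (log2 0.91, not called) and at 405 against 174 CPM in IR. Xcl1 was at 403 against 108 CPM in IR and at 473 against 381 in control, where it was not called. Tigit, a coinhibitory receptor, was at 36.7 against 8.81 CPM in control and 41.2 against 12.3 in IR, the latter on 18 and 6 UMIs.

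Ikzf2 (Helios) did not behave alike in the libraries. It was higher in IR Gzmk-only cells (log2 1.90, interval 0.79 to 3.16) and had a log2 ratio of -0.88 (-1.07 to -0.68) in control. Whether this difference between libraries exceeds the spread between mice was not tested, since each condition had 1 library. In the IR Gzma-only cells, 86.8% of Mast2, 80.7% of Nf1 and 51.6% of Ifitm1 UMIs came from 1 barcode, and their calls rest on that barcode.

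NK-type receptor genes were on the Gzma side. In control, 11 of 16 tested were lower in Gzmk-only cells (list median -3.62 against 0.033 over all genes), and in IR 5 of 8 (-1.39 against 0.047). Klre1, an NKG2-related chain, was at 21.7 against 153 CPM in control and 38.9 against 118 in IR. The adaptor Fcer1g was at 3.04 against 92.8 CPM in control and 11.4 against 42.9 in IR, and Tyrobp at 4.28 against 75.8 and 2.29 against 44.9 CPM. A minority of cells gave these values. Of the 356 control and 306 IR Gzma-only cells, 69 and 44 held Klre1, 18 and 10 Fcer1g and 25 and 16 Tyrobp. These adaptors are also NK-cell markers, and the 7 NK-cell markers summed to 83.3 CPM in control Gzmk-only cells against 299 in Gzma-only cells, and 96.1 against 161 in IR. Without Eomes the sums were 9.79 against 236 CPM in control and 22.9 against 127 in IR. Ncr1 was at 0 and 10 UMIs in control Gzmk-only and Gzma-only cells and at 0 and 1 in IR, and Cd8b1 was at 1219 and 1258 CPM in Gzma-only cells of control and IR. The control Gzma-only UMIs of Klra7 came from 17 cells, 18.9% of them from 1 barcode. The sort gate required TCRβ and CD8, and whether NK cells were among the sorted cells was not tested.

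Barcodes with a UMI of the 6 NK-cell markers other than Eomes were then left out, a choice made after seeing the data. This removed 70 control and 37 IR Gzma-only cells and 74 and 9 Gzmk-only cells. Of the NK-type receptor genes outside those markers, 3 of 9 tested were then lower in Gzmk-only cells in control and 3 of 6 in IR, Klrg1 and Klre1 in both, with fewer genes reaching the minimum. Over all genes, 148 were then higher and 229 lower in control Gzmk-only cells, and 173 higher and 77 lower in IR. With those barcodes kept, 2.43% of all genes tested were lower in control and 2.29% in IR. Klre1 was at 20.8 against 66.2 CPM in control and 35.2 against 102 in IR. The terminal effector genes stayed over 2-fold apart, with Zeb2 at 78.7 against 461 CPM in control and 68.1 against 355 in IR, Cx3cr1 at 9.16 against 158 and 39.9 against 184, and Gzmb at 153 against 369 and 334 against 1470.4. Tox was at 642 against 339 CPM in control, under 2-fold, and 233 against 78.0 in IR.

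**Figure D3:**
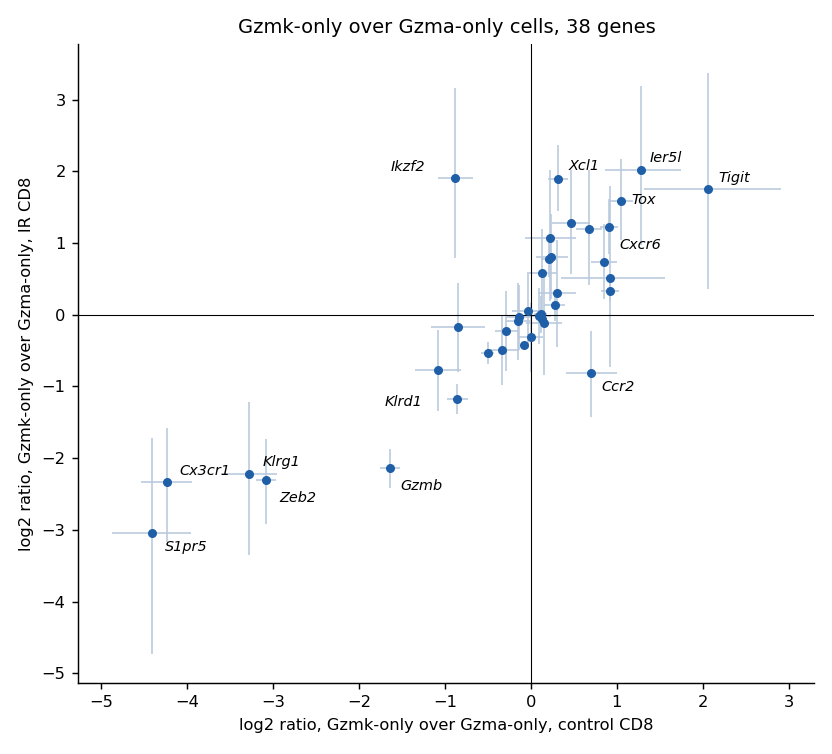
Log2 ratio of Gzmk-only over Gzma-only cells in the control library (x axis) and the IR library (y axis) for 38 genes, with 95% counting intervals as lines. Zeb2, Cx3cr1, S1pr5, Klrg1 and Gzmb sit at the lower left, below 0 in both libraries, Tox and Tigit at the upper right, and Ikzf2 at the upper left.

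Levels of many genes differed with the amount of Gzma. Cells were grouped by 0, 1, 2 to 9 and 10 or more Gzma UMIs, the first group being the Gzmk-only cells. From 0 to 10 or more, Zeb2 was at 83.6, 132, 324 and 1274 CPM in control and 68.6, 164, 272 and 339 CPM in IR. Gzmb was at 154, 189, 430.2 and 1156 CPM in control and 327, 744, 1166 and 2143 CPM in IR. Both genes were higher in each further class, and in IR the last classes of Zeb2 had overlapping intervals (272 CPM (95% interval 214 to 340.2) and 339 CPM (95% interval 279.8 to 407)).

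Cx3cr1 was at 10.9, 29.3, 40.2 and 378 CPM over the same classes in control and 38.9, 62, 172 and 203 CPM in IR, and Klrg1 at 11.6, 19.8, 55.5 and 193 CPM and 22.9, 28.2, 96.6 and 118 CPM. Tox had the opposite order. It was at 631, 482, 372 and 199 CPM in control and 233, 186, 93.0 and 29.5 CPM in IR, and Xcl1, lower in the last class of each library, at 473, 364, 403 and 67.1 CPM and 403, 203, 78.7 and 29.5 CPM. The log2 ratio of Cxcr6 between 10 or more and 0 Gzma UMIs was -1.43 in control and -1.61 in IR. The classes with 10 or more UMIs had 133 and 157 cells, with median UMIs of 8902 and 2464 against 6819 and 1567.5 in cells without Gzma, and depth and Gzma class cannot be told apart here.

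Against cells with no Gzma UMI, cells with at least 10 had 300 higher (3.45%) and 507 lower genes (5.83%) of 8703 in control. In IR they had 98 (2.56%) and 405 (10.6%) of 3828. The minimum in cells with at least 10 was 16.6 CPM in control and 58.9 CPM in IR. In cells with none it was 10 and 45.8 CPM, so these splits carry no direction. NK-type receptors were higher in 10 of 14 tested in control (list median 3.40) and in 3 of 6 in IR (0.84), beside -0.14 and -0.18 over all genes. The 7 NK-cell markers summed to 266 against 83.3 CPM in control and 174 against 96.1 in IR, and without Eomes to 226 against 9.79 and 133 against 22.9 CPM, with 10 and 1 Ncr1 UMIs in the cells with at least 10, and their part was not tested. Cell cycle genes were higher in 9 of 10 and 6 of 7, for example Stmn1 at 620.1 against 123 CPM in control and 459.8 against 126 in IR. Tissue residency genes were lower in 3 of 10 in control and 3 of 7 in IR, Cxcr6 and Xcl1 in both. In IR, 5 of 10 interferon response genes and 5 of 11 immediate early genes were lower, among them Irf7 (log2 -1.19) and Fos (log2 -1.28), against 1 of 11 and 2 of 11 in control. S1pr1 and Klf2, which drive exit from tissue, were higher in control (log2 1.17 and 1.56), and in IR had log2 ratios of 0.53 and -0.090.

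**Figure D4:**
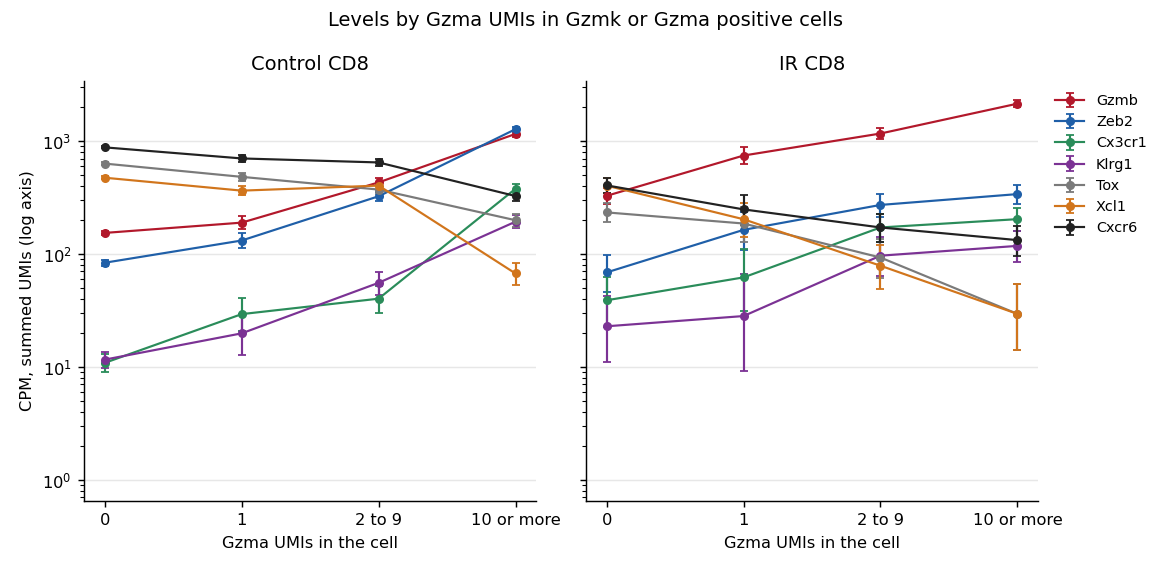
Levels of selected genes in members grouped by 0, 1, 2 to 9 and 10 or more Gzma UMIs, in CPM on a log axis with 95% intervals, for control and IR. Gzmb, Zeb2, Cx3cr1 and Klrg1 were higher at 10 or more Gzma UMIs than at 0 in both libraries, and Tox and Xcl1 lower.

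Between conditions, members differed in many genes, and so did other Cd3 barcodes. Of 8756 genes, 456 (5.21%) were higher and 2523 (28.8%) lower in IR than in control members, around a median log2 ratio of -0.54. The minimum was 16.2 CPM in IR members and 10 CPM in control members. In other Cd3 barcodes 695 of 9157 (7.59%) were higher and 1568 (17.1%) lower, around -0.38. The ratio in members followed gene structure, with medians from 0.15 for genes of the shortest total intron length to -1.31 for the longest. TMM scaling, which moved all ratios by 0.27, gave 749 higher and 1579 lower genes, and centring within 20 bins of intron length gave 758 and 693. Log2 ratios of IR over control below are therefore followed by their value centred on genes of like intron length, with bins of its own for each group of cells. The methods name default settings and Cell Ranger 6.0.1, while the control files carry 5.0.1, and introns are not mentioned, so whether both runs treated them alike was not tested. The centring within groups other than all members was chosen after seeing the data.

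Several effector transcripts were called higher in IR members and not in other Cd3 barcodes, a difference that was not tested. Other Cd3 barcodes were not a like group in the 2 libraries. They held 1711 Pdcd1 positive, Ccr7 negative barcodes of 6935 in control and 131 of 5575 in IR. Ccr7 positive barcodes numbered 1750 and 2393, so ratios in other Cd3 barcodes also contain this change of mix. The log2 ratio of IR over control was 2.07 (centred 1.87) for Gzmb in members and -0.16 (centred -0.31) in other Cd3 barcodes. For Ccl5 it was 1.98 (centred 2.03) against 0.56 (centred 0.62), and for Ccl3 1.28 (centred 1.08) against -0.54 (centred -0.68). Gzmm, S1pr5, Cx3cr1 and Lgals1 stood likewise, at 1.2 (centred 1.25), 1.54 (centred 1.43), 1.47 (centred 2.62) and 1.68 (centred 1.57) in members and at -0.013 (centred 0.040), -0.36 (centred -0.39), -0.20 (centred 0.65) and -0.051 (centred -0.091) in other Cd3 barcodes. Klrd1 was higher in both, at 1.92 (centred 2.08) and 1.42 (centred 1.58). Prf1 went the other way, at -1.11 (centred -1.06) in members and -1.96 (centred -1.90) in other Cd3 barcodes, and its call was lost under TMM scaling.

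Before centring, 5 of 10 tissue residency genes were lower in IR than in control members and 1, Bhlhe40, was higher. The list median was -0.97 against -0.54 over all genes, of which 28.8% were lower. After centring 4 were lower and 1 higher, with a list median of -0.65 against 0 and 7.91% of all genes lower. Other Cd3 barcodes gave a similar centred result, with 3 of 10 lower, Cxcr6, Itga1 and Zfp683. The list median there was -0.64, with 5.74% of all genes lower. Within a kind the centred counts differed. In Gzmk-only cells 2 of 9 tested were lower, Cxcr6 and Zfp683 (list median -0.43, with 10.1% of all genes lower). In Gzma-only cells 5 of 9 were lower, with Itga1, Xcl1 and Cd101 besides, and Bhlhe40 was higher (list median -1.14, with 11.3% of all genes lower). Itga1, the collagen-binding integrin of resident cells, had a log2 ratio of -2.48 (centred -1.32) in members and -2.74 (centred -1.89) in other Cd3 barcodes, and Cxcr6 of -1.66 (centred -1.77) and -2.24 (centred -2.28). Tox was at -2.03 (centred -0.72) against -1.87 (centred -0.98), so its call was lost by centring. Of 10 heat shock genes 6 were lower, beside 28.8% of all genes tested, and after centring 7 were lower, beside 7.91% of all genes. Hspa1a, an inducible HSP70 chaperone, had a log2 ratio of -3.87 (centred -4.02) and was at 60.8 CPM in IR and 889 in control members and at 77.2 and 901 CPM in other Cd3 barcodes. Among genes of at least 50 CPM in the higher group, those with the largest uncentred ratios in members were Gm50306 at 7.91 (centred 8.07), Srrm4 at 7.43 (centred 8.59), Gm765 at 7.02 (centred 8.11), 8430422H06Rik at 6.70 (centred 7.53) and Nkain2 at 6.34 (centred 7.65), and centring changed their order. Other Cd3 barcodes gave 6.43 (centred 7.32) for Nkain2 and 8.85 (centred 9.01) for Gm50306.

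Because the kinds of member had different shares in the libraries, levels were also set side by side within a kind. The kinds were not matched in depth, with median UMIs of 3136 in control and 1828 in IR Gzma-only cells. Of Gzma positive members, 45.2% in control and 26.7% in IR had 1 Gzma UMI. Among members with 10 or more Gzma UMIs, the uncentred levels of Klrg1, Cx3cr1 and Zeb2 given above were lower in IR than in control. In Gzma-only cells the log2 ratio of IR over control was -0.079 (interval -0.55 to 0.37) and, centred, 0.24 (-0.23 to 0.69) for Klrg1. For S1pr5 it was -0.027 (interval -0.53 to 0.45) and, centred, 0.040 (-0.47 to 0.52), so for both genes the intervals held 0 on either scale. Cx3cr1 depended on the scale, at -0.056 (interval -0.40 to 0.27) and, centred, 1.29 (0.95 to 1.62). Uncentred, Klrg1 was at 112 CPM in control and 106 in IR Gzma-only cells, Cx3cr1 at 204 and 196, and S1pr5 at 95.7 and 93.9 CPM. Over all members the same genes were at 29.7 and 66.5, 42.5 and 118, and 18.4 and 53.5 CPM. Gzmb and Ccl5 had higher levels in IR in Gzmk-only cells and in Gzma-only cells. Gzmb was at 154 in control and 327 CPM in IR Gzmk-only cells and at 479 and 1442 in Gzma-only cells, and Ccl5 at 9439 and 32645, and 9969 and 43927 CPM. Their log2 ratios were 1.09 (centred 0.83) for Gzmb and 1.79 (centred 1.78) for Ccl5 in Gzmk-only cells and 1.59 (centred 1.55) and 2.14 (centred 2.25) in Gzma-only cells, so Gzmb in Gzmk-only cells was under 2-fold when centred. Zeb2 in Gzma-only cells was at 339 CPM in IR against 707 in control, a log2 ratio of -1.06 (interval -1.30 to -0.83) and, centred, 0.11 (-0.13 to 0.34), and the difference was not seen on the centred scale.

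The β chain variable segment Trbv3 followed the kind of member. It was looked at in detail after its values were seen, as 1 of the 6 genes higher in Gzmk-only cells of both libraries. Among cells in which 1 Trbv segment had more UMIs than any other, Trbv3 was that segment in 218 of 717 cells (30.4%, 95% interval 27.1 to 33.9) of control Gzmk-only cells and 10 of 72 cells (13.9%, 95% interval 6.87 to 24.1) of Gzma-only cells. In IR these were 19 of 53 cells (35.8%, 95% interval 23.1 to 50.2) and 1 of 56 cells (1.79%, 95% interval 0.0452 to 9.55). Control cells with both granzymes gave 24 of 110 cells (21.8%) and IR cells with both 3 of 37 cells (8.11%), between the other kinds in each library.

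Among barcodes outside the members, Trbv3 was frequent in those with Pdcd1, at 323 of 670 cells (48.2%) in control and 11 of 29 cells (37.9%) in IR. It was infrequent in those with Ccr7, at 54 of 631 cells (8.56%) and 21 of 315 cells (6.67%), and in those with none of the rule genes, at 111 of 807 cells (13.8%) and 42 of 380 cells (11.1%). Gzmk-only members thus lay between the Ccr7 positive and Pdcd1 positive barcodes of the control library, with intervals that overlapped neither. Only 899 of 2750 control and 146 of 838 IR members could be assigned a segment, and neither clones nor mice were resolved, so these shares describe the libraries.

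**Figure D5:**
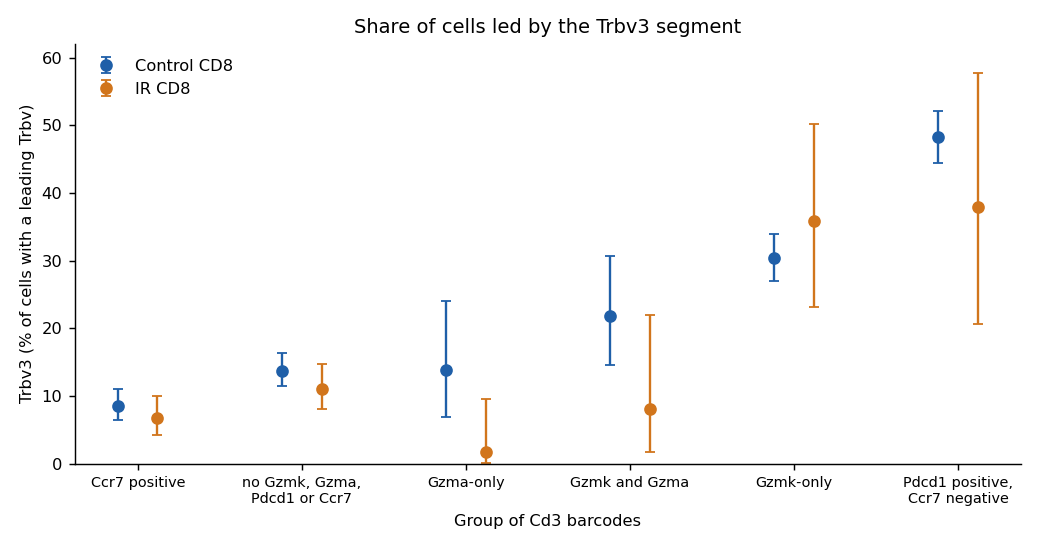
Share of cells with Trbv3 as leading β chain variable segment, in percent with exact 95% binomial intervals, for Gzmk-only, Gzma-only and double positive members and for the other Cd3 barcodes by Pdcd1 and Ccr7. Gzmk-only members stood at 30.4% in control and 35.8% in IR, above Gzma-only members in each library.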

How the data were processed

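Sorted kidney CD4+, CD8+ and DN T cells of normal and IR mice were profiled with droplet-based single-cell RNA sequencing, 1 library each. The authors deposited filtered matrices of raw UMI counts per gene and barcode, made with Cell Ranger per the file headers (5.0.1 for control, 6.0.1 for IR) on mouse build mm10, with 32285 features. The deposited counts were not normalized. Barcode filters are those of the opening paragraph. CPM were computed from UMIs summed over the cells of a group on 32181 features, after 104 features (mitochondrial genes, ribosomal protein genes and Malat1) were removed. CPM intervals are exact Poisson, shares exact Clopper-Pearson, both at 95%. Group ratios use a floor of 3 counts where a group was at 0. No significance test was run, because each group came from 1 library, cells are not replicates of mice, and members were chosen on these same counts.

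Genes were called at 2 or more fold, with at least 10 CPM and 20 UMIs in the higher group, leaving out the 7 genes of the rule. Named genes were the 10 highest and 10 lowest ratios (5 each between kinds of member and between conditions) among genes of at least 50 CPM in the higher group, and 40 genes listed for CD8 T cells, and 26 gene lists were counted. T-cell receptor segments and the genes of the rule were left out of this choice, and other list members were named as examples with their values known. The members, lists and rules were chosen with earlier results of these data known. For shares, cells were thinned to 1000 UMIs with a fixed seed, leaving out shallower cells. TMM factors came from edgeR 4.0.16, intron lengths from GENCODE M21 (32235 features, 99.8%), other steps from Python 3.11.15, numpy 2.4.6, scipy 1.17.1 and pandas 2.3.3. The scripts were tested on simulated counts. Alternatives were TMM scaling, other thinning depths, no minimum, stricter filters, a mean over cells, other comparison groups and removal of shared or marker-bearing barcodes. Promoter letters came from the RefSeq table of GRCm38.p6, which held no entry for Ccl5, Klrg1, Tox and Klrd1. Some genes of the lists are not reported here.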

Additional observations from a re-analysis of the deposited data

How the results depend on the processing

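Counts of called genes depended on the settings, and the causes were not tested beyond what each setting removes or adds. With 2 granzyme UMIs per member, 246 genes were higher in control Gzmk-only cells, 48 were higher and 200 lower in IR Gzmk-only cells, and 27 were higher in control members. Thinned to 1000 UMIs, Gzmk-only cells had 525 higher and 28 lower genes in control and 113 and 36 in IR, and 28 genes were higher in control and 162 in IR members. Without minimum CPM or UMIs, which tests more genes, Gzmk-only cells had 600 higher and 2003 lower in control and 1426 and 822 in IR, members 1213 and 1388 in control and 1510 and 1838 in IR, and IR members 2708 higher than control members. Without barcodes that carried myeloid, B or erythroid transcripts, the control counts were 257 higher and 115 lower for Gzmk-only cells and 12 higher for members, and without the top 5% of barcodes by UMIs 151, 130 and 24, with 51 lower in IR Gzmk-only cells. A mean over cells gave 232 higher in control Gzmk-only cells, and leaving out barcodes found in more than 1 library 20 higher in control members. Against barcodes without Gzmk and Gzma, control members had 76 higher and 155 lower genes, and against those without the 4 rule genes 57 and 44, with 178 higher in IR. With ribosomal genes kept, IR members had 537 higher and 295 lower. TMM scaling gave 749 higher and 1579 lower genes in IR against control members, and intron-length centring 758 and 693.

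The share of members was 3.88% in control and 5.6% in IR with 2 UMIs, 28.4% and 13.1% without thinning, 21.1% and 13.6% at 2000 UMIs and 10.1% and 9.34% at 500 UMIs. Among 3167 values of single named genes, 2449 stayed within counting error, 706 moved beyond it and 12 changed sign. The last were log2 values of Hbb-bs (0.048, 0.021, 0.23), Hbb-bt (1.11, 1.40, 0.67, 1.57) and Spp1 (0.92, 0.40, 0.45) in IR members, Ikzf2 in IR over control members (0.050) and Mast2 in IR Gzmk-only over Gzma-only cells (0.18). Removal of barcodes by 18 stricter markers of other cells, and the 2 UMI minimum between kinds of member, were chosen after seeing the data. No paired analysis was possible because each group held 1 library and no result came from a test. Depth limits IR most, where 3 UMIs correspond to 6.86 CPM in Gzmk-only cells against 0.247 in control.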

Other observations

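The same rule applied to the other sorted fractions gave few cells. At 1000 UMIs, 1.92% (95% interval 1.64 to 2.25) of control CD4 and 2.48% (95% interval 2.17 to 2.82) of IR CD4 Cd3 barcodes met it, and 1.94% (95% interval 1.66 to 2.26) of control DN and 2.63% (95% interval 2.12 to 3.23) of IR DN barcodes. The kind differed by fraction. In CD4 libraries Gzmk-only barcodes were 1.69% and 1.52% and Gzma-only ones 0.231% and 0.896%, while in DN libraries Gzmk-only barcodes were 0.249% and 0.236% and Gzma-only ones 1.67% and 2.30%, control before IR in each case. Without thinning, the rule was met by 7.90% and 4.15% of CD4 and 5.42% and 3.14% of DN barcodes.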
